A study of Homo sapiens with 26 samples.

Results

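The matrix metalloproteases (MMP), the ADAM and ADAMTS proteases and their inhibitors, the TIMPs, were followed across cultures of 786-O, a line of human clear cell renal carcinoma that lacks functional VHL. Genes were taken where the symbol is MMP, TIMP, ADAM or ADAMTS followed by digits alone, which gave 64 genes of the 19775 that had a probe set assigned to 1 gene. They comprise 22 MMP, 4 TIMP, 20 ADAM and 18 ADAMTS genes. Each gene is represented by the probe set with the highest mean signal among its own, out of 145 probe sets for the family.

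MMPs are zinc-dependent proteases that cleave collagens, laminins, fibronectin and many cell-surface and secreted proteins. Most are secreted as inactive precursors, and some are anchored in the membrane. ADAMs are membrane proteases that release the outer part of receptors, adhesion molecules and growth factor precursors, and several members of the family have no active protease site. ADAMTS proteases are secreted and cut proteoglycans, procollagens and von Willebrand factor. TIMPs bind the active sites of these enzymes, and TIMP2 also takes part in the activation of the MMP2 precursor at the cell surface. In clear cell renal carcinoma these genes are studied for matrix remodelling and invasion.

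The study asked how 786-O cells respond to small molecules that lower HIF-2a, the hypoxia-inducible factor that accumulates in the absence of VHL. Total RNA was measured on 26 Affymetrix U133 Plus 2.0 arrays. The groups of 3 arrays were Blk, taken here as the untreated cells because every other group has another name, the vehicle DMSO, the compounds labelled 40, 41, 76 and 77, and the groups labelled PRC3 and WT8. PRC3 and WT8 are names in wide use for 786-O sublines that carry an empty vector and wild-type VHL respectively, but the labels used here do not say so, nor whether either is a single clone. pTR and pTV had 1 array each and their labels give nothing beyond the names. Neither doses, exposure times nor oxygen conditions are given. Whether replicates were separate cultures is also not stated, so the p-values reflect array-to-array spread that could be technical.

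The renal epithelial genes PAX8, PAX2, KRT8 and KRT18 were above the floor of 20 signal units on every array of the replicated groups, and PAX8 ranged from 760.6 to 1270.02. The leukocyte gene PTPRC, the monocyte gene CD14 and the endothelial gene VWF were at the floor on all 24 of those arrays, and the kidney cadherin CDH16 on 21. Of the other endothelial markers, CDH5 was at the floor on 23 and KDR on 18, but PECAM1 on none (45.5 to 117). The summed signal of 5 fibroblast markers was 270.1 to 302.6 in WT8 and 190.0 to 222.2 in PRC3, and its part in the results for WT8 was not tested. Arrays at the floor add 20 per marker to these sums. COL3A1 was at the floor on 23 of the 24 arrays, PDGFRB on 19, LUM on 7, DCN on 4 and COL1A1 on none. Group means of LUM ran from 20.6 to 95.4. Replicates 2 and 3 of compound 40 had mean deposited signals of 165.9 and 173.7, whereas the other 24 arrays had means of 142.784 to 142.787. Replicate 3 of WT8 had an ACTB 3' to 5' signal ratio of 2.37, against at most 1.39 elsewhere.

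Of the 64 genes, 50 passed the filter on low signal and were tested: 16 MMP, 3 TIMP, 16 ADAM and 15 ADAMTS genes. The 14 that did not were MMP10, MMP12, MMP15, MMP19, MMP20, MMP21, TIMP4, ADAM2, ADAM6, ADAM28, ADAM32, ADAMTS16, ADAMTS19 and ADAMTS20. Among these, the 5 genes MMP20, TIMP4, ADAM2, ADAMTS19 and ADAMTS20 were at the floor on every replicated array. At the other end, 15 genes were never at the floor: MMP2, MMP7, MMP9, MMP14, MMP16, TIMP1, TIMP2, ADAM9, ADAM10, ADAM12, ADAM15, ADAM17, ADAM19, ADAMTS1 and ADAMTS3. In a bulk array, less RNA per cell and fewer cells expressing a gene cannot be told apart. Signals of different probe sets are on scales of their own, so levels are compared only within a gene.

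Over the 8 replicated groups, 7 of the 50 tested genes differed by limma's moderated F test with Benjamini-Hochberg adjustment over all probe sets, beside 13.1% of all 35013 tested probe sets. They were MMP7 (adjusted p = 1.18e-06), TIMP2 (0.00149), ADAMTS3 (0.0032), MMP24 (0.0108), ADAM10 (0.0246), ADAMTS15 (0.0452) and ADAM33 (0.0464). Without replicate 2 of WT8 the count was 4.

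**Figure D1:**
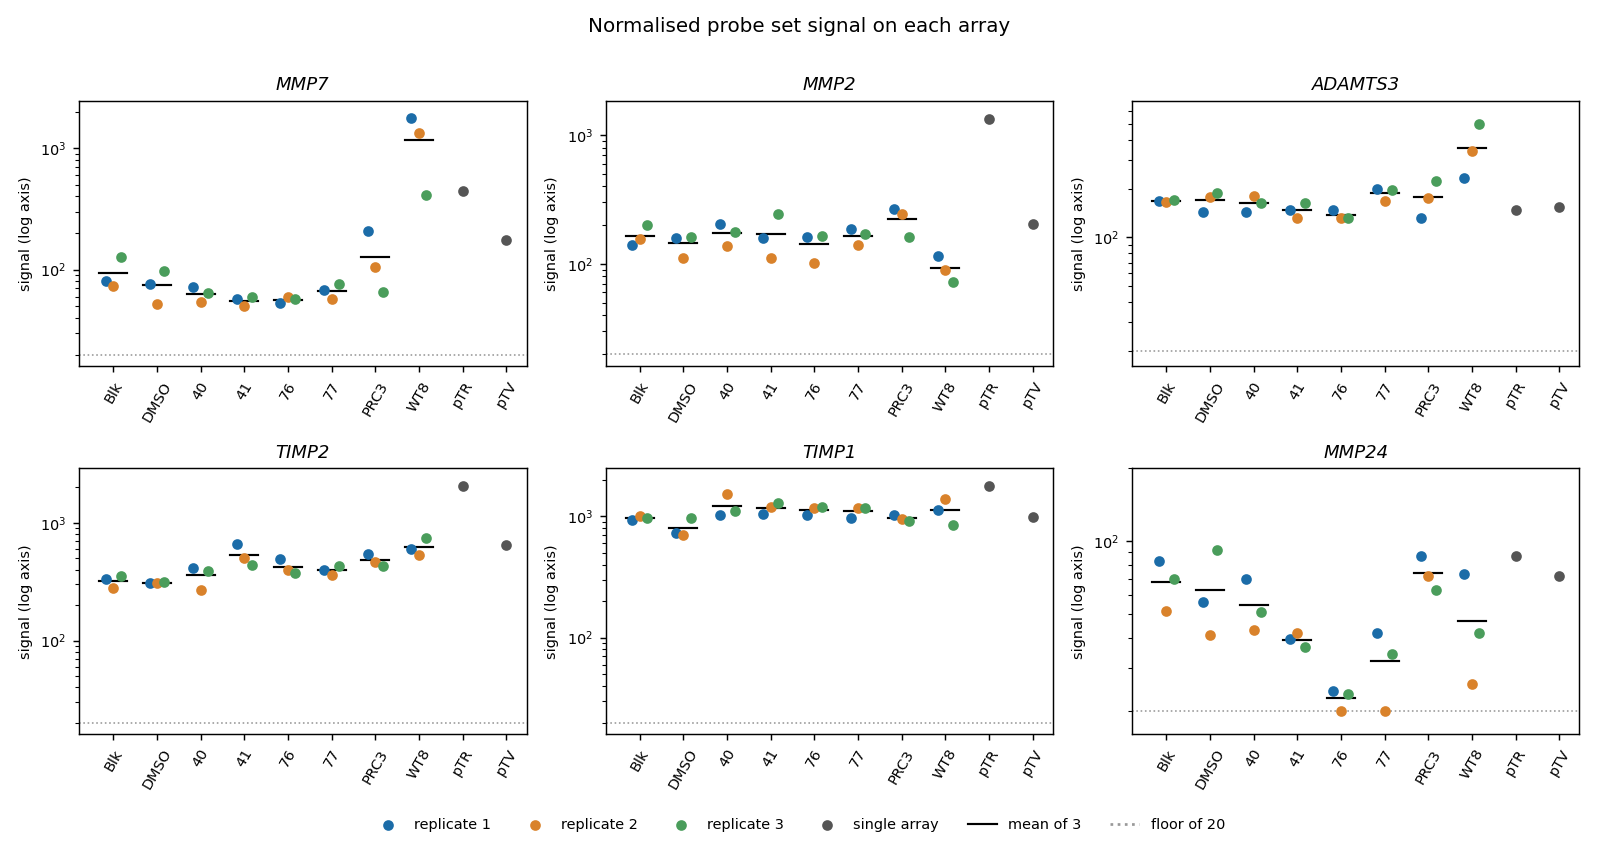
Signal on each array (log scale, arbitrary units after quantile normalization) for MMP7, MMP2, ADAMTS3, TIMP2, TIMP1 and MMP24 in the 8 groups of 3 arrays and in the single arrays pTR and pTV, with bars at the group means. MMP7 in WT8 lies between 414 and 1759, above every other replicated array, and MMP2 in WT8 lies between 71.8 and 115, below every PRC3 array.

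MMP7, ADAMTS3 and MMP2 were the members whose level differed between WT8 and PRC3. The stretch of promoter around a motif match is shown for the first pair, from RefSeq promoter windows of 300 bases on GRCh38.p14. Capitals mark an AP-1 site (TGACTCA or TGAGTCA, either strand) or the core of a hypoxia response element (ACGTG or GCGTG, either strand). The positions of the stretches are chr11:102530798-102530824 for MMP7, and chr4:72569421-72569445 and chr4:72569237-72569261 for ADAMTS3, all on the minus strand, and each sequence reads along the gene. The first base of the motif lies at -67 for MMP7, and at -214 and -30 for ADAMTS3, relative to the gene's start.
MMP7, AP-1: aacactcaaaTGAGTCAcctatttcca
ADAMTS3, hypoxia core 1: gccccgcatgACGTGggcgccacgg
ADAMTS3, hypoxia core 2: ccccacctctGCGTGtgcggcggag
The RefSeq table held windows for 36 of the 64 genes. MMP7 was the single one with an AP-1 match, 2.78% of the 36, beside 4.92% of all 27305 windows. A hypoxia core was found in 20 of the 36 windows, or 55.6%, beside 48.4% of all windows, and the MMP24 window held neither motif. A match describes the letters in the window and does not show that a factor binds there.

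MMP7 is matrilysin, a small secreted protease without the hinge and hemopexin domains of most MMPs. Its signal on the 3 WT8 arrays was 1759, 1328 and 414, and on the 3 PRC3 arrays 209, 105 and 65.6. The groups did not overlap, although replicate 3 was the lowest array of both. MMP7 rose from a mean of 127 ± 74.1 (SD, n = 3) in PRC3 to 1167 ± 687 (SD, n = 3) in WT8, or 8.75-fold on the log2 scale (log2 change 3.13, SE 0.40, 95% interval 2.30 to 3.96, limma adjusted p = 1.99e-05). This SE and interval rest on a spread shared over the 8 groups. The WT8 and PRC3 arrays were more widely spread than those of 41 (50.4 to 59.3) and 76 (53.3 to 59.5). With WT8 and PRC3 fitted alone, the limma adjusted p was 0.166. Leaving out each array in turn kept the call in 6 of 6 fits, and the log2 change was 3.76 without replicate 3 of WT8. The signal of MMP7 was 73.0 to 127 in Blk, 51.8 to 96.6 in DMSO and 50.4 to 76.1 over the 12 arrays with a compound, all below the WT8 arrays. DMSO and 77 overlapped with Blk, whereas the highest arrays of 40 (71.9), 41 (59.3) and 76 (59.5) lay below the lowest of Blk. None of these compounds passed against Blk by limma (adjusted p = 0.628 for 40, 0.457 for 41 and 0.565 for 76). No compound passed for MMP7 against DMSO either.

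MMP2, the 72-kDa gelatinase that cleaves denatured collagens and type IV collagen, went the other way. Its signal was 266, 243 and 162 on the PRC3 arrays and 115, 89.4 and 71.8 on the WT8 arrays, with no overlap. MMP2 fell 2.42-fold, from 224 ± 54.4 to 92.1 ± 21.8 (SD, n = 3 each; log2 change -1.28, SE 0.27, limma adjusted p = 0.00509), and each of the 6 fits without 1 array kept the call. A second MMP2 probe set that was tested showed a log2 change of -0.49 with an adjusted p of 0.565, so the probe sets of this gene disagree on whether the change passes. In Blk, DMSO and the compound groups MMP2 ranged from 102 to 243, and none of these comparisons passed.

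ADAMTS3 is a procollagen amino-propeptidase that also processes the precursor of VEGF-C, a lymphatic growth factor. Its signal was 234, 341 and 499.6 on the WT8 arrays and 132, 176 and 222 on the PRC3 arrays, and the groups just failed to touch. ADAMTS3 rose 1.98-fold, from 177 ± 45.2 to 358 ± 134 (SD, n = 3 each; log2 change 0.99, SE 0.21, limma adjusted p = 0.00603). Without replicate 3 of WT8, the array with the raised ACTB ratio, the log2 change was 0.71 and the adjusted p 0.0501.

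These 3 genes were 6% of the 50 tested, with 4.56% of all tested probe sets called between WT8 and PRC3. The 2 that rose stand beside 2.35% of probe sets called higher, and the 1 that fell beside 2.21% called lower. In all, 8 members had arrays that did not overlap between the groups, beside 15.8% of all probe sets. The median log2 change of the 50 genes was -0.0849, with a median of 0 over all probe sets, and the median absolute change was 0.307 beside 0.213. With the replicate number as a block, which the correlation of same-numbered arrays allows here, 5 members were called, beside 6.61% of probe sets. The block added MMP13 (collagenase-3, adjusted p = 0.0396) and ADAM9 (adjusted p = 0.0224). Fitted on the 6 arrays of these groups alone, none of the 3 passed (adjusted p = 0.166 for MMP7, 0.155 for MMP2 and 0.342 for ADAMTS3), and 19 probe sets were called in all.

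None of the remaining MMPs was called between the sublines on the probe set that represents it. MMP13 was at the floor on all WT8 arrays and at 27.8, 70.8 and 36.5 in PRC3, at least 2.08-fold lower in WT8 (limma adjusted p = 0.0692), and it passed without replicate 1 of PRC3 (log2 change -1.35, adjusted p = 0.0289). It was at the floor on all 12 compound arrays too, but also on 2 of 3 DMSO arrays and 1 of 3 Blk arrays. No compound passed against DMSO for MMP13. MMP28, or epilysin, was 105, 64.2 and 103 in PRC3 and 105, 27.9 and 20 in WT8, so that 1 WT8 array matched the highest PRC3 array (log2 change -1.19, adjusted p = 0.178). Without replicate 1 of WT8 the log2 change of MMP28 was -1.91 and passed (adjusted p = 0.00656). MMP14, the membrane-type enzyme that activates the MMP2 precursor, was 359, 297 and 306 in PRC3 and 355, 212 and 251 in WT8, a log2 change of -0.26 (SE 0.19, adjusted p = 0.573) with overlapping arrays. MMP9, the 92-kDa gelatinase, stayed between 32.6 and 99.8 on all 24 arrays and was called in no comparison.

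MMP16, another membrane-type MMP, depended on the probe set. The probe set with the highest mean did not pass (log2 change in WT8 0.22, limma adjusted p = 0.879). A pair of other MMP16 probe sets did, with log2 changes in WT8 of 1.39 (limma adjusted p = 0.00219) and 0.76 (adjusted p = 0.0283). The mean deposited signals of this pair were 28.4 and 20.9 in that order. Both were nearer the floor than the 44.8 of the probe set with the highest mean. MMP24, a further membrane-type MMP, showed the same kind of disagreement. Its main probe set had a log2 change of -0.77 (adjusted p = 0.270) and its second one -1.36 (adjusted p = 0.0159). The mean deposited signal was 52.7 for the main one and 34.2 for the second. When the tested probe sets of each gene were averaged, the members called in WT8 were MMP2, MMP7, MMP16, MMP24 and ADAMTS3.

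**Figure D2:**
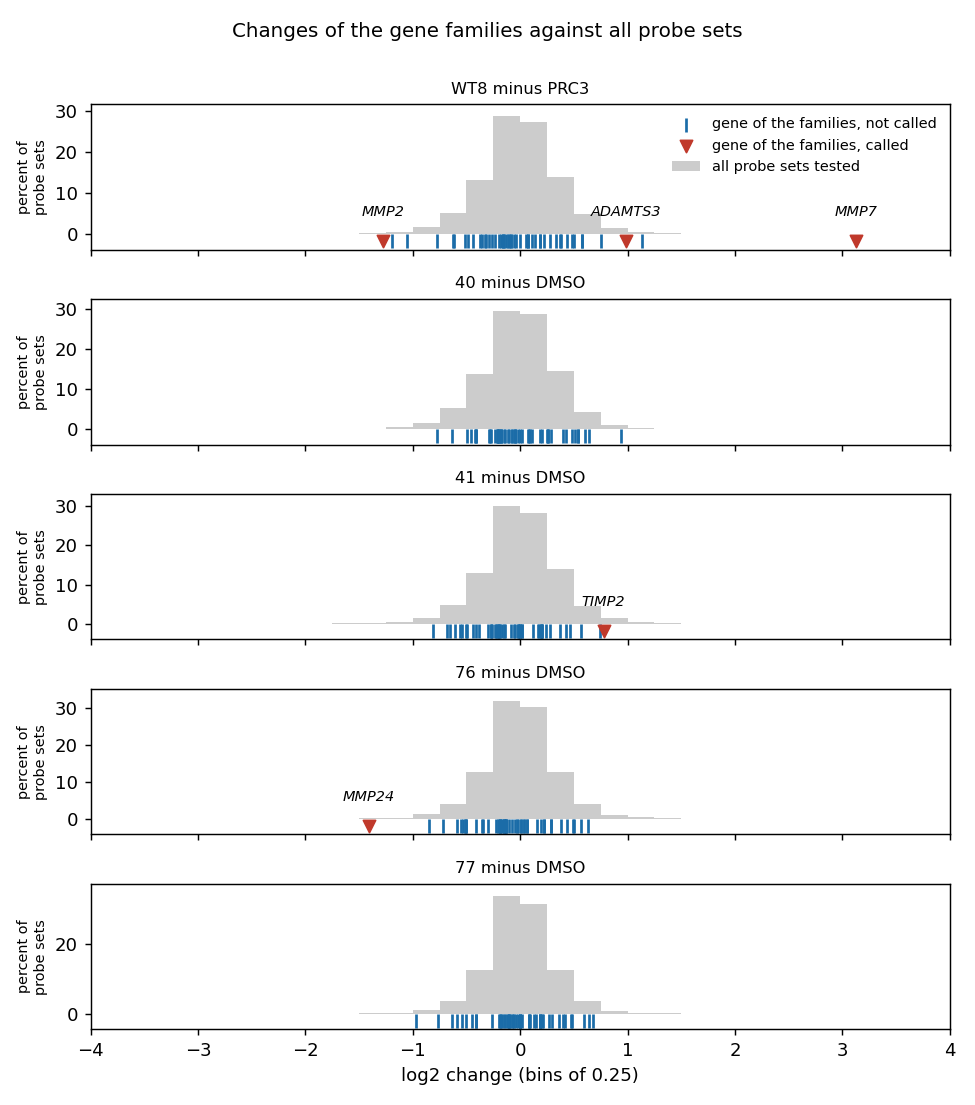
Distribution of log2 change (horizontal axis) over all tested probe sets (grey bars, percent of probe sets per bin) in 5 comparisons, with a blue tick below for each tested MMP, TIMP, ADAM or ADAMTS gene that was not called and a red triangle for each that was. Most ticks lie under the body of the bars, and MMP7 at 3.13 lies far to the right of it in WT8 minus PRC3.

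Among the ADAMs, which shed cell-surface proteins, no member was called between WT8 and PRC3. ADAM9 came nearest among those never at the floor, with 1089, 793 and 758 in WT8 and 635, 531 and 580 in PRC3. These arrays did not overlap, and the log2 change was 0.58 (SE 0.20, limma adjusted p = 0.122), but a second ADAM9 probe set gave 0.08 (adjusted p = 0.945). ADAM10, the main sheddase of NOTCH receptors and cadherins, was 1270, 1545 and 1027 in PRC3 and 1345, 1566 and 1405 in WT8, while its signals over Blk, DMSO and the compounds lay between 734 and 1166. ADAM10 was called over the 8 groups by the F test, yet its changes were 0.18 for WT8 minus PRC3 (adjusted p = 0.678) and 0.36 for PRC3 minus Blk (adjusted p = 0.383). ADAM33 was at the floor on every array of Blk, 41, 76 and 77, and at 48.6, 47.8 and 32.7 in PRC3, at least 2.12-fold higher than in Blk (adjusted p = 0.104). Elsewhere it was at the floor on 1 of 3 DMSO arrays, 2 of 3 with compound 40 and 1 of 3 in WT8. The highest values of those groups were 35.8, 39.7 and 66.9. Its probe set is of a kind that may also hybridise to other transcripts. ADAM19, a membrane protease that processes neuregulins, stayed between 76.2 and 138 over the 24 arrays and was called nowhere.

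Secreted ADAMTS genes other than ADAMTS3 were not called between the sublines. ADAMTS15, a proteoglycan-cleaving member, was 51.4, 42.1 and 35.5 in WT8 and 33.4, 24.1 and 20 in PRC3, without overlap (log2 change 0.75, SE 0.25, limma adjusted p = 0.10). ADAMTS1, which cleaves versican and aggrecan, was 217, 413 and 849 in WT8 and 54.2, 166 and 792 in PRC3. Its arrays overlapped widely and the log2 change of 1.14 had an SE of 0.59 (adjusted p = 0.368). ADAMTS10, linked to fibrillin microfibrils, ran from the floor to 164 over the 24 arrays without passing in any comparison.

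Against DMSO, TIMP2 was called for 1 compound, 41. TIMP2 was 306, 306 and 313 in DMSO and 663, 506 and 441 with compound 41, and the groups lay clearly apart. TIMP2 rose 1.71-fold, from 309 ± 4.05 to 537 ± 114 (SD, n = 3 each; log2 change 0.78, SE 0.17, limma adjusted p = 0.0132). It was the 1 member called for compound 41, or 2% of the 50 tested, beside 2.54% of all probe sets in either direction and 1.17% that rose. A second TIMP2 probe set also rose (log2 change 0.71, SE 0.18, adjusted p = 0.0302), and one more had 1.08 (adjusted p = 0.149). The call was lost without replicate 1 of DMSO (adjusted p = 0.0532), without replicate 2 of DMSO (0.0515) or without replicate 1 of compound 41 (log2 change 0.62, adjusted p = 0.120), and on the 6 arrays alone (0.0892).

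With the other compounds TIMP2 did not pass. Its signals were 417, 268 and 387 with compound 40, 490, 398 and 373 with compound 76, and 394, 364 and 434 with compound 77. The arrays of 76 and 77 all lay above DMSO, those of 40 did not, and the log2 changes were 0.19 for 40 (limma adjusted p = 0.739), 0.44 for 76 (0.314) and 0.36 for 77 (0.649). All of these share the DMSO arrays, whose SD of 4.05 was small beside 38.5 in Blk, where TIMP2 was 337, 279 and 353. Against Blk in place of DMSO, compound 41 again passed (log2 change 0.72, adjusted p = 0.0196), a control chosen after the data had been seen.

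TIMP2 was also higher in both sublines, at 543, 469 and 432 in PRC3 and 599, 532 and 744 in WT8. PRC3 did not overlap with Blk, but the log2 change of 0.58 did not pass (limma adjusted p = 0.128), and WT8 minus PRC3 was 0.37 (SE 0.17, adjusted p = 0.297) with overlapping arrays.

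TIMP1, the inhibitor that also stimulates growth of some cells, was 735, 703 and 959 in DMSO. It was 1025, 1533 and 1101 with compound 40, 1053, 1190 and 1275 with 41, 1020, 1164 and 1189 with 76, and 967, 1176 and 1163 with 77. Every compound array lay above every DMSO array, but none of the 4 comparisons, which share those arrays, passed the threshold. The log2 changes were 0.60 for 40 (limma adjusted p = 0.0919), 0.56 for 41 (0.0647), 0.50 for 76 (0.155) and 0.47 for 77 (0.384), each with an SE of 0.16. TIMP1 passed for 40 without its replicate 1 (log2 change 0.72, adjusted p = 0.0373) and for 41 without replicate 3 of DMSO (0.70, adjusted p = 0.0393). With the replicate block, which the arrays of compound 41 and DMSO allow, TIMP1 passed for 41 (adjusted p = 0.0323), so that 2 members were called beside 4.36% of probe sets.

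Blk gave a different baseline for TIMP1. Its arrays read 937, 1004 and 960. Those of 40, 41 and 76 all lay above them and those of 77 overlapped with them, and DMSO minus Blk was -0.29 (SE 0.16, limma adjusted p = 1). Measured from Blk the changes were 0.31, 0.27, 0.22 and 0.18 for 40, 41, 76 and 77, with adjusted p from 0.430 to 0.829. TIMP3, which is bound to the matrix, was low throughout, with 26.5, 20.1 and 31.0 in Blk and 37.5, 36.8 and 40.2 in DMSO, and was called nowhere.

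MMP24 was the 1 member called for compound 76, or 2% of those tested, beside 1.35% of all probe sets in either direction and 0.605% that fell. It was 56.4, 41.2 and 91.7 in DMSO and 24.2, 20 and 23.5 with compound 76, where 1 array was at the floor and the others close to it. MMP24 fell at least 2.66-fold, given the array at the floor, from 63.1 ± 25.9 to 22.6 ± 2.25 (SD, n = 3 each; log2 change -1.41, SE 0.35, limma adjusted p = 0.0419). The call held in 1 of the 6 fits without 1 array, that without replicate 2 of DMSO, and was lost without replicate 1 or 3 of DMSO or any 1 replicate of 76. A floor of 50 in place of 20 also ended it (log2 change -0.35, adjusted p = 0.761), and the second MMP24 probe set had -0.74 (adjusted p = 0.421). Against Blk, where MMP24 was 82.7, 51.4 and 69.8, the log2 change with 76 was -1.57 (adjusted p = 0.0154).

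The other compounds gave MMP24 values between these. It was 70.1, 43.2 and 51.2 with compound 40, 39.4, 42.0 and 36.5 with 41, and 41.8, 20 and 34.2 with 77. The log2 changes from DMSO were -0.15 (limma adjusted p = 0.929), -0.61 (0.499) and -0.97 (0.424) in that order.

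For compound 40, 0 of 50 members passed by limma, beside 0.685% of probe sets, while 3 members reached an unadjusted p below 0.05. For compound 77 the count was also 0, beside 0.171% of probe sets, while 6 reached that unadjusted level. DMSO minus Blk called 0 members and 0 probe sets (0%), with 3 members at an unadjusted p below 0.05. PRC3 minus Blk called 0 members beside 1.03% of probe sets, with 5 at that level. At the same unadjusted level were 11.7% of all probe sets for 40, 7.63% for 77, 2.27% for DMSO minus Blk and 11.2% for PRC3 minus Blk, against 6%, 12%, 6% and 10% of the 50 genes. Arrays without overlap were found for 5 members with compound 40 (14% of all probe sets), 6 with 41 (20.2%), 7 with 76 (17.2%) and 5 with 77 (13.1%). The same held for 4 members in DMSO minus Blk (6.15%) and 4 in PRC3 minus Blk (14.5%). The median log2 change over the 50 genes was -0.0643 for 40, -0.111 for 41, -0.133 for 76 and -0.0284 for 77, each beside 0 over all probe sets.

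Among the sheddases, ADAM17, the enzyme that releases TNF and EGF receptor ligands, was 342, 291 and 334 in DMSO and 409, 398 and 437 with compound 41. The arrays did not overlap, and the log2 change of 0.37 did not pass (limma adjusted p = 0.309). ADAM15 was 314, 253 and 300 in DMSO and lower with each of 41 (195, 244 and 201) and 77 (214, 147 and 246). With 76 it was 201 to 243, also below every DMSO array, and with 40 it was 240 to 268. Blk, at 219 to 300, overlapped with all of the compounds. The log2 changes of ADAM15 from DMSO, -0.44 for 41 (adjusted p = 0.327) and -0.54 for 77 (adjusted p = 0.440), did not pass. ADAM12, which cleaves insulin-like growth factor binding proteins, was 62.9, 97.1 and 112 in DMSO and 140, 139 and 165 with compound 41 (log2 change 0.74, adjusted p = 0.203), but 67.0, 96.0 and 78.7 with compound 77.

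**Figure D3:**
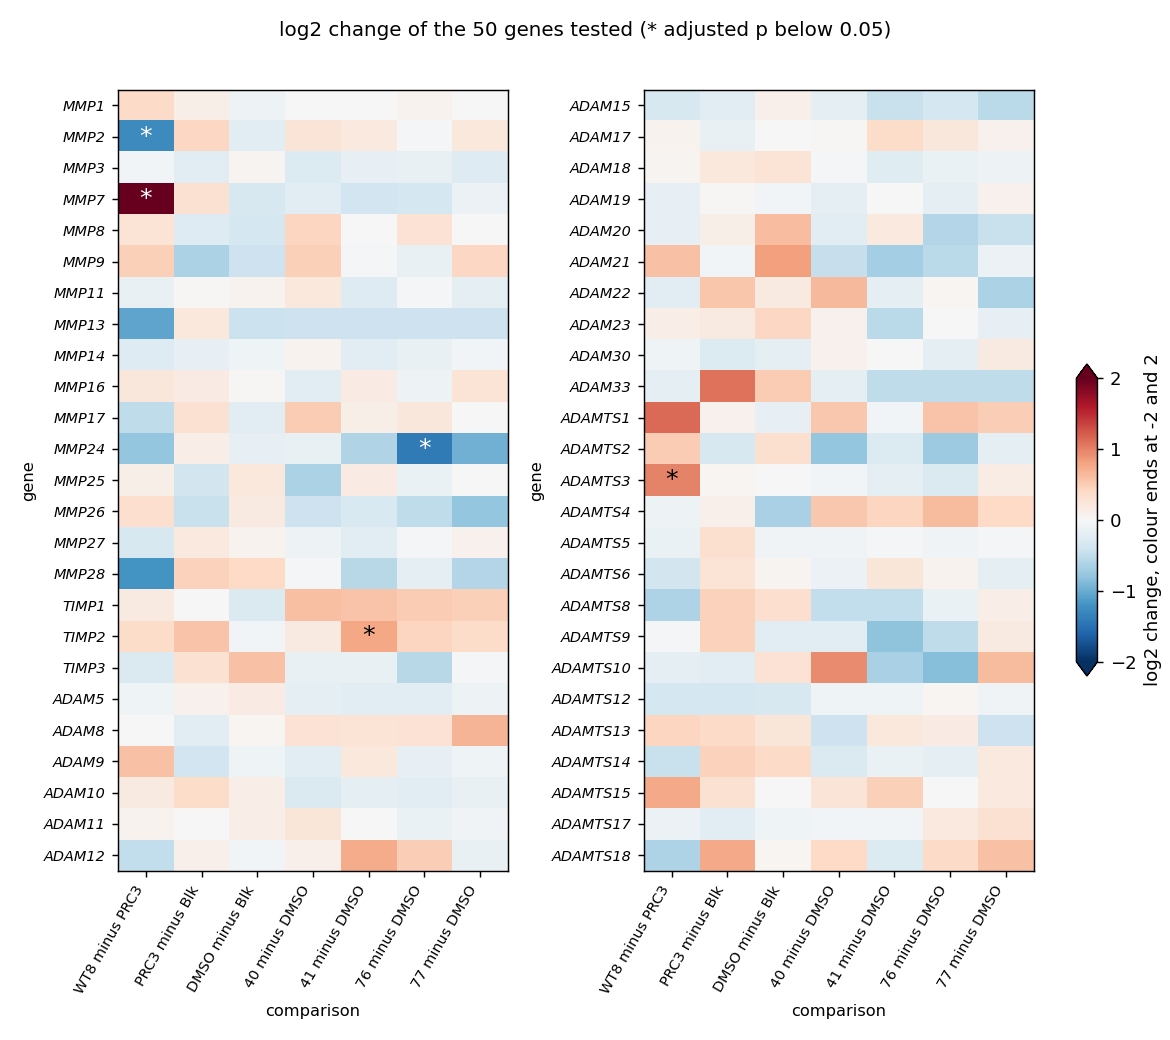
Log2 change (colour, blue lower and red higher, ending at -2 and 2) of the 50 tested genes, in rows by family, in 7 comparisons, in columns, with a star where the limma adjusted p was below 0.05. The 5 stars are MMP7, MMP2 and ADAMTS3 in WT8 minus PRC3, TIMP2 in 41 minus DMSO and MMP24 in 76 minus DMSO.

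The 4 compounds were compared in their 6 pairs, with p-values adjusted over all probe sets and pairs together. Without stated doses and times, no pair is known to be matched. No member passed in any pair by limma, while 1.21% of probe sets passed in at least 1. At an unadjusted p below 0.05 there were 7 members for 41 against 40, 4 for 76 against 40, 6 for 77 against 40, 2 for 76 against 41, 5 for 77 against 41 and 3 for 77 against 76. In the same order, these counts stand beside 11.9%, 9.43%, 11.2%, 5.5%, 8.46% and 7.18% of all probe sets at that unadjusted level, and are 14%, 8%, 12%, 4%, 10% and 6% of the 50 genes. The share of probe sets passing after adjustment in each pair was 0.426%, 0.186%, 0.388%, 0.174%, 0.408% and 0.443%. Many of the 95% intervals are wide, so the compounds are not shown to act alike on these genes.

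MMP24 had the smallest adjusted p of the pairs named here, at 1.26 log2 units lower with 76 than with 40 (log2 change -1.26, 95% interval -1.98 to -0.53, adjusted p = 0.160). TIMP2 was 0.59 higher with 41 than with 40 (interval 0.23 to 0.95, adjusted p = 0.191). ADAM22, an ADAM without protease activity, had a log2 change of -1.28 for 77 against 40 (interval -2.05 to -0.50, adjusted p = 0.193). ADAM12 had -0.89 for 77 against 41 (interval -1.47 to -0.30, adjusted p = 0.244). TIMP1, in contrast, was close among the compounds, with -0.04 for 41 against 40 (interval -0.37 to 0.30) and -0.03 for 77 against 76 (interval -0.36 to 0.30).

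Some ADAMTS genes followed the replicate number rather than the group, a pattern looked for after the data had been seen. With replicate number as a term beside the group, 5 members passed, beside 7.43% of probe sets. ADAMTS9, a proteoglycan-cleaving protease, was lowest in replicate 1 in 8 of 8 groups, with 33.1, 124 and 134 in Blk and 20, 83.8 and 73.0 with compound 76 as examples (replicate 2 minus replicate 1 1.50, replicate 3 minus replicate 1 1.48, limma adjusted p = 8.05e-05). ADAMTS4, an aggrecanase, was lowest in replicate 1 in 7 of 8 groups (0.93 and 0.90, adjusted p = 0.00213), and ADAMTS1 in 8 of 8 (0.83 and 1.09, adjusted p = 0.0350). ADAM12 was also lower in replicate 1 (0.35 and 0.52, adjusted p = 0.0389), and ADAM9 was higher there (-0.40 and -0.19, adjusted p = 0.0265). What a replicate number stands for is not given in the labels, and its part in the other results was measured only through the block.

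**Figure D4:**
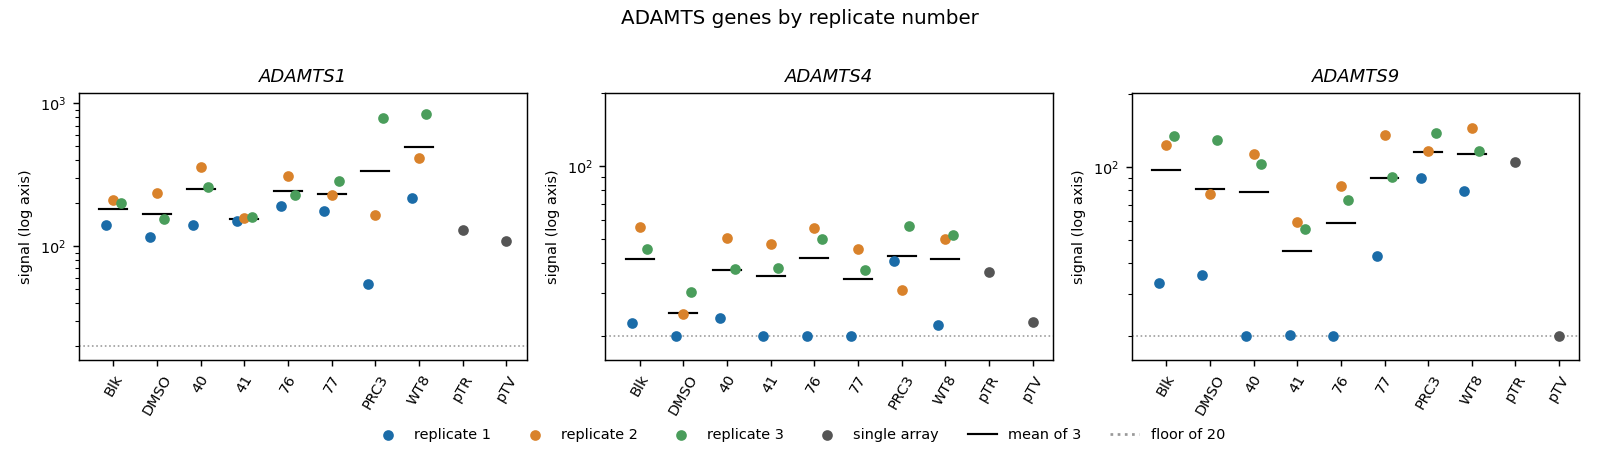
Signal (log scale, arbitrary units) of ADAMTS1, ADAMTS4 and ADAMTS9 on each array of the 8 groups, with the points of a group marked by replicate number. Replicate 1 is the lowest point of every group for ADAMTS1 and ADAMTS9, and of 7 of the 8 groups for ADAMTS4.

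pTR and pTV have 1 array each, so their values carry no test. The pTR array stood apart from the rest: its highest correlation with any other array was 0.933, the lowest of the 26 arrays, of which the next had 0.949. Of the 50 tested genes, 6 were more than 2-fold apart with the higher array at 100 or above, beside 5.83% of probe sets, and all 6 were higher in pTR. How many of those probe sets were higher in pTR was not counted, so this direction has no share beside it. The mean signal that picked each gene's probe set includes the pTR array. MMP2 was 1324 in pTR and 204 in pTV, a 6.48-fold difference, TIMP2 was 2071 and 644 (3.21-fold), and MMP7 was 441 and 176 (2.50-fold). ADAMTS15 was 143 and 20.6 (6.93-fold), ADAMTS5, an aggrecanase, 166 and 25.4 (6.56-fold), and ADAMTS9 105 against the floor, at least 5.23-fold. The pTR signals of MMP2, TIMP2, ADAMTS5 and ADAMTS15 were each above all 24 replicated arrays, whereas that of MMP7 was within the range of WT8. TIMP1 was 1770 in pTR and 987 in pTV, 1.79-fold.

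Other genes of the same system were read from lists of activators, further inhibitors, substrates and transcription factors. Of 17 tested activators and cofactors, 1 rose in WT8, where 2.35% of all probe sets were called higher. It was PCSK5, a proprotein convertase that cleaves enzyme precursors. PCSK5 was 221 ± 57.9 in WT8 and 21.7 ± 2.90 in PRC3 (SD, n = 3 each), with 2 of the 3 PRC3 arrays at the floor. The floor limits the low side, so the fold was at least 9.99 (limma adjusted p = 3.14e-06). For the same reason PCSK5 was at least 5.36-fold lower in PRC3 than in Blk (adjusted p = 6.05e-04), and, with 1 of 3 arrays at the floor, at least 2.94-fold lower with compound 41 than with DMSO (adjusted p = 0.0201). Of all probe sets, 1.03% were called for PRC3 minus Blk and 2.54% for 41. The other compounds did not pass for PCSK5, but it was 33.3 to 74.9 with 40, 42.3 to 67.6 with 76 and 30.8 to 40.9 with 77. In DMSO it was 58.7 to 109. The median log2 change of the 17 genes in WT8 was 0.115, beside 0 for all probe sets.

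Of 10 tested inhibitors outside the TIMP family, 1 rose in WT8, beside 2.35% of all probe sets called higher. It was TFPI, which inhibits tissue factor, and the rise was 1.64-fold (limma adjusted p = 0.00282). SERPINE2, or protease nexin-1, rose 1.72-fold with compound 41 (adjusted p = 0.00612) and 1.71-fold with compound 76 (adjusted p = 0.00945). For both of these compounds it was the 1 listed inhibitor that passed. In either direction, 2.54% of all probe sets were called for 41 and 1.35% for 76.

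Among 29 tested genes whose proteins are known to be shed from the surface, the RNA of 3 rose and of 3 fell in WT8. Of all probe sets, 2.35% were called higher and 2.21% lower there, and the median log2 change of the 29 genes was -0.225. JAG1, a NOTCH ligand, rose 5.11-fold (limma adjusted p = 7.10e-06), VCAM1, a leukocyte adhesion molecule, 5.10-fold (adjusted p = 8.82e-07), and CX3CL1, a membrane-bound chemokine, 2.40-fold (adjusted p = 6.42e-04). TGFA, AXL and ICAM1 were the 3 that fell. JAG1 also rose 2.59-fold with compound 77 (adjusted p = 0.0395), and SDC4, a cell-surface proteoglycan, fell 1.60-fold with compound 76 (adjusted p = 0.0422). Of all probe sets, 0.171% were called for 77 and 1.35% for 76. In PRC3, CX3CL1 was 2.27-fold lower than in Blk (adjusted p = 0.00458) and VCAM1 1.94-fold lower (adjusted p = 0.0497).

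Of 18 tested matrix substrates, FN1 and SPP1 rose in WT8, beside 2.35% of all probe sets. FN1, or fibronectin, was 6954 ± 258 in WT8 and 4124 ± 553 in PRC3 (SD, n = 3 each), a 1.69-fold rise (limma adjusted p = 0.0177). It was 2190 ± 356 in DMSO and rose 2.06-fold with compound 40 (adjusted p = 0.00853), 1.83-fold with 41 (adjusted p = 0.0109) and 2.25-fold with 76 (adjusted p = 9.78e-04). SPP1, or osteopontin, rose 2.57-fold in WT8 (adjusted p = 0.0126). Its PRC3 arrays were widely spread, at 856, 2746 and 4119, and its WT8 arrays were 4604 to 6205. COL4A1, a basement membrane collagen chain, was 1.79-fold higher in PRC3 than in Blk (adjusted p = 0.0319). Of 14 tested AP-1, ETS and related factors, 1 was called in WT8, beside 2.21% of all probe sets called lower. It was RUNX2, a regulator of MMP13 in bone, which fell 1.76-fold (adjusted p = 0.0252). The relatives ADAMTSL1, ADAMTSL4, MEP1B and BMP1 had adjusted p-values from 0.299 to 0.871 in WT8 minus PRC3.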

How the data were processed

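The deposited values are MAS5 signal intensities per probe set, 1 column per array, per the labels and the submitters' processing notes, which give no version. The labels' protocols name limits of 20 and 16000 and a variation filter. The deposited table holds values from 0 to 15220.7 and was thus limited here. After 62 control probe sets were removed, signals were quantile-normalized, held between 20 and 16000 and taken to log2. Testing covered probe sets whose signal reached the median of its array in 3 or more of 24 arrays, and used limma 3.58.1 in R 4.3.3 (lmFit, eBayes with trend) over 8 groups of 3, with 16 residual degrees of freedom. Benjamini-Hochberg adjustment ran over all 35013 tested probe sets and, for the compounds, over the 6 pairs too, and calls were made below 0.05. Each probe set has a spread shared over the 8 groups, so an SE or interval is not that of the groups compared alone. The number of arrays limits the precision.

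Gene names came from the platform annotation: 41097 probe sets had 1 gene, 1801 several and 11777 none, and 41043 matched RefSeq with 0 symbols changed. Of the used probe sets, 4 (MMP28, ADAM22, ADAM33 and ADAMTS10) are marked by the manufacturer as open to cross-hybridisation. The members and gene lists were chosen with earlier results of these data known, so counts in the lists are no independent evidence. Members named with values are those called in any comparison, those with a group mean of at least 100 signal units, and TIMP1 to TIMP4, MMP2, MMP9, MMP14, ADAM9, ADAM10, ADAM15, ADAM17 and ADAMTS1. Outside that rule, MMP13, MMP16, MMP28, ADAM22, ADAMTS4 and ADAMTS5 were chosen after their values were seen, as were TGFA, AXL and ICAM1 in the lists, where the 3 called genes of largest change are named. Same-numbered arrays were checked for pairing through the correlation of their deviations from group means. These were 0.457, 0.107 and 0.346 for WT8 and PRC3, 0.206, 0.187 and 0.172 for 41 and DMSO, and 0.275, 0.184 and 0.184 for 76 and DMSO, all above 0.1, also for DMSO and Blk and for 76 and 41, and not for the other comparisons. The script was tested on simulated data. Alternatives were other scalings, floors, offsets, filters, probe set rules and fits, the replicate block, and each array left out.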

Additional observations from a re-analysis of the deposited data

How the results depend on the processing

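Alternative values for single members were computed for the 38 gene and comparison pairs with an unadjusted limma p below 0.05 in the main fit. None of the 582 values reversed, which that choice made likely. Of them, 552 kept direction and side of the threshold, 19 no longer passed and 11 newly passed. Most of the 38 pairs were not called in the main fit, so most of the 552 values stayed uncalled. The 19 losses come from called pairs, and MMP24 with compound 76 passed in 4 of 10 alternatives besides left-out arrays. Counts of members called moved as follows. Between WT8 and PRC3, 5 were called with the replicate block, 5 with probe sets averaged per gene and 0 with those groups alone. For 41 the block gave 2 and the groups alone 0. For 76 the count was 0 with signals as deposited, with a floor of 50, with log2(signal + 16), without the filter, with averaged probe sets and with the groups alone. The block gave 1 for 40 (TIMP1), 1 for PRC3 minus Blk (TIMP2) and 1 for the compound pairs (MMP24). Over the 8 groups, the F test called 3 with a floor of 50, 4 without the filter, 4 without the trend and 12 with the block. The block changed no other count. Left-out arrays gave 2 to 4 for WT8 minus PRC3, 0 to 1 for 40, 0 to 2 for 41, 0 to 1 for 76, 0 to 0 for 77, DMSO minus Blk, PRC3 minus Blk and the pairs, and 4 to 9 for the F test. The cause of these moves was not tested. The fits of the groups alone have fewer arrays and also take the spread from those groups alone, and these were not told apart. With the groups alone, 19 probe sets were called in WT8, 6 for 40, 374 for 41, 126 for 76 and 0 for 77, against 1597, 240, 889, 474 and 60. Median scaling called 100 probe sets for 40, 513 for 41, 27 for 77 and 186 for PRC3 minus Blk (362 otherwise). Of the alternatives added after seeing the data, leaving out replicates 2 and 3 of compound 40 gave 0 members and 25 probe sets, and Blk as the control gave the values stated for TIMP2 and MMP24. Signals near the floor of 20, as for MMP24 with compound 76, limit what can be measured, since a fold change there is compressed.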
